A study of Mus musculus with 24 samples.

Results

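This report describes 10 genes of the circadian clock in the mouse left ventricle. They are the activators Arntl (the gene of BMAL1) and Npas2, the repressors Per1, Per2, Per3, Nr1d1 and Nr1d2, and the PAR bZIP output factors Dbp, Tef and Hlf. All 10 were found by symbol among the 14912 genes of the deposited table. They were selected on the difference of their values between the groups, over all mice and within sets of samples, so their differences between groups are given here as a description and without a p-value. RNA selected with oligo(dT) was sequenced from the left ventricles of male C57BL/6J wild-type mice. In the hypertensive-LVH group, 12 mice carried a subcutaneous minipump that released ANG II (1500 ng/kg/min) over 7 days, and the pumps of the 12 control mice released saline over the same time. LVH stands for left ventricular hypertrophy, and ANG II is angiotensin II, a peptide hormone that raises blood pressure. The age of the mice and the hour at which hearts were taken are not given in the sources used here, so hour of collection and group cannot be told apart. Tissue of the whole ventricle mixes cell types, so fewer cells of a type and less RNA per cell cannot be told apart either.

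The clock is a transcriptional feedback loop that runs in nearly every cell, heart muscle included. BMAL1 pairs with CLOCK or with NPAS2 and binds E-boxes to switch on the Per and Cry genes, the Nr1d genes and Dbp. PER and CRY proteins then hold their own activators back, while REV-ERB proteins, encoded by Nr1d1 and Nr1d2, repress Arntl and Npas2 through ROR elements. DBP, TEF and HLF bind D-boxes and pass the rhythm on to output genes. In a running clock, Arntl and Npas2 therefore peak far from the hour at which Dbp and Nr1d1 peak, and a sample of tissue catches each gene at 1 point of its cycle.

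Promoter sequence is shown first because these DNA elements are how the genes act on each other. RefSeq promoter windows of GRCm38.p6, from 250 bases before to 50 bases after a start site, were found for 9 of the 10 genes, 12 windows in all. The motifs searched on both strands were the E-box CACGTG, its variant CACGTT, the D-boxes TTATGTAA and TTATGCAA, and the ROR element. These stand in 7.15%, 4.68%, 0.938%, 0.743% and 0.219% of all 32851 windows, in that order. At least 1 motif was found for 5 genes, Arntl, Nr1d1, Per1, Per3 and Tef, and motifs are in capitals below.
The Per3 stretch, chr4:151044676-151044915 on the minus strand, holds the D-box TTATGTAA at 205 and again at 158 bases before the start site, and lies within a Camta1 transcript.
Per3: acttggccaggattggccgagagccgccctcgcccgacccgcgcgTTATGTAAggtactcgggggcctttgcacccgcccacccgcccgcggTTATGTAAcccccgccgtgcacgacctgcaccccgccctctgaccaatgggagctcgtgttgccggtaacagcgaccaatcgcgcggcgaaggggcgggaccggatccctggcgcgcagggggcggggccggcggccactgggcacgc
The Per1 stretch, chr11:69098699-69098938 on the plus strand, holds an E-box at 166 and a D-box at 24 bases before a start site that lies inside a longer Per1 transcript.
Per1: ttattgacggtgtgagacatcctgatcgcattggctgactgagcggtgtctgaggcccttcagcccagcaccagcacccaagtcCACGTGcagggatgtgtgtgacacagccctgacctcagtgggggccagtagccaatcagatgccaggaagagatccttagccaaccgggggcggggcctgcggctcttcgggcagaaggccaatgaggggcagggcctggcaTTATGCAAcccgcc
The Nr1d1 stretch, chr11:98775388-98775627 on the minus strand, holds the E-box variant, read on the other strand as AACGTG, at 28 bases before the start site.
Nr1d1: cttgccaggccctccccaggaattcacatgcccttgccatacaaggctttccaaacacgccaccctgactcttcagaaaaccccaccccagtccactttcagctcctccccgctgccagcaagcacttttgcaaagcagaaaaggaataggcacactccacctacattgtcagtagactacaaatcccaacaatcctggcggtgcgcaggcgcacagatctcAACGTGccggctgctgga
The Arntl site, chr7:113207530-113207555 on the plus strand, is a ROR element 27 bases after the start site, in a UTR exon of Arntl.
Arntl: aaggcagaAAGTAGGTCAgggacgga
The Tef site, chr15:81802536-81802561 on the plus strand, is an E-box in an exon of a longer Tef transcript, which also overlaps an exon of Gm17597. Another Tef window, chr15:81811164-81811463, holds an E-box at 138 bases before its start site, which is not printed.
Tef: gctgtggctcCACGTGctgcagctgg
A match is a description of the letters and was not tested for binding.

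The values are FPKM, fragments of a gene scaled by transcript length and by the mapped fragments of the sample, as the authors deposited them. Of all values, 2741 (0.766%) were below 0, and exact ties between samples divided the mice into 4 sets, named here set 1 (samples 1 to 3 of both groups), set 2 (samples 4 to 6), set 3 (samples 7 to 9) and set 4 (samples 10 to 12). In the table, 278 genes had whole hundredths in every sample and were left out of the tie counts. As read from the spacing of their values, the 10 clock genes had been shifted and scaled within these sets before deposit. The methods do not name this step. For all 10 clock genes the differences within a set before that step could be worked out from the spacing of the values, under assumptions given with the processing, and both are given. Sums of values ran from 460715 to 515185 FPKM over the ANG II mice and from 482319 to 567727 FPKM over the controls. The depth in fragments is not given. Log2 differences below are hypertensive-LVH minus control on the log2(FPKM + 1) scale, with negative values set to 0. On this scale the median over all 14026 genes tested was 0.05, and 20.9% of them were called higher and 12.6% lower at an adjusted p under 0.05 (limma, Benjamini-Hochberg adjustment). Of the clock genes described here, 0 were called higher and 3 lower (Dbp, Hlf and Nr1d1) by that rule, with a median log2 difference of -0.11 over the 10. With a log2 difference over 0.5 asked for as well, 4.52% of all genes were called higher and 1.4% lower, and of the 10 genes 0 and 2 (Dbp and Nr1d1). Because the same contrast chose them, nothing is read from these counts.

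Arntl, which encodes the activator BMAL1 that the whole loop depends on (chr7:113207465-113314126, plus strand, GRCm38), ran from 4.13 through a median of 11.1 to 13.1 FPKM in the 12 mice of the hypertensive-LVH group. In the control group it ran from 4.25 through 8.23 to 10.9. The ranges overlapped almost wholly, while 3 of the 12 ANG II mice lay below the control median and 9 above it. The means were 9.81 ± 2.96 (SD, n = 12) and 7.83 ± 2.25 (SD, n = 12) FPKM, a log2 difference of 0.27 ± 0.17 (SE).

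Npas2, a partner of BMAL1 that can take the place of CLOCK (chr1:39193731-39363236, plus strand), was the lowest of the 10 genes in the control group. It ran from 1.84 through 3.68 to 5.63 FPKM in the hypertensive-LVH group, against 2.00 through 2.70 to 3.86 in the controls. Here 2 of the 12 ANG II mice lay below the control median. The log2 difference was 0.24 ± 0.11 (SE), between means of 3.70 ± 1.06 and 2.94 ± 0.623 FPKM (SD, n = 12 each).

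Per1 is the Period gene that also responds quickly to hormones such as glucocorticoids (chr11:69095217-69109960, plus strand). It ran from 15.4 through 28.7 to 47.8 FPKM in the hypertensive-LVH group, against 7.56 through 21.6 to 39.9 in the controls, with 9 of 12 ANG II mice above the control median. Its log2 difference was 0.39 ± 0.22 (SE). Per2, a core repressor of the loop (chr1:91415982-91459324, minus strand), ran from 2.44 through 4.60 to 8.37 FPKM against 0.756 through 4.55 to 6.33, so that the medians nearly coincided, and its log2 difference was 0.14 ± 0.20 (SE). Per3, the Period gene that is least needed for the rhythm itself (chr4:151003652-151044665, minus strand), ran from 1.65 through 2.93 to 6.20 FPKM against 1.23 through 3.69 to 6.69. Its log2 difference was -0.15 ± 0.21 (SE), and 8 of 12 ANG II mice lay below the control median. For Per2 and Per3 the difference between the groups was smaller than its standard error.

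Nr1d1, which encodes the heme-binding repressor REV-ERBα (chr11:98767932-98775333, minus strand), ran from 10.8 through 30.8 to 61.1 FPKM in the hypertensive-LVH group, against 31.0 through 49.8 to 97.4 in the controls. The lowest control value was thus close to the ANG II median, and 8 of 12 ANG II mice lay below the control median. The means were 33.7 ± 17.4 and 57.8 ± 21.4 FPKM (SD, n = 12 each), a log2 difference of -0.87 ± 0.26 (SE). Nr1d2, which encodes the related repressor REV-ERBβ (chr14:18204054-18239127, minus strand), had no such gap. It ran from 11.9 through 18.0 to 32.0 FPKM against 14.1 through 19.0 to 27.2, with a log2 difference of -0.08 ± 0.14 (SE). The 3' end of Nr1d1 overlaps a neighbour on the other strand in the mouse genome, and the sources used here do not state whether fragments were counted by strand.

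Dbp, a direct target of BMAL1 with a wide daily swing in many tissues (chr7:45705088-45710203, plus strand), was the most variable of the 10. It ran from -4.96 through 13.3 to 47.4 FPKM in the hypertensive-LVH group, with 3 values below 0, and from 11.5 through 26.5 to 63.0 in the control group. The means were 15.6 ± 15.5 and 31.2 ± 16.8 FPKM (SD, n = 12 each), so the spread within a group was about as large as the gap between the groups. The log2 difference was -1.61 ± 0.59 (SE), and -0.23 without the 3 ANG II and 3 control mice of set 3. On the log2(FPKM + 0.1) scale it was -2.44.

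Hlf, a PAR bZIP factor of liver, heart and brain (chr11:90336536-90390895, minus strand), ran from 3.15 through 5.36 to 6.53 FPKM in the hypertensive-LVH group, against 3.40 through 7.73 to 9.75 in the controls. It was the gene of the 10 for which all 12 ANG II mice lay below the control median. The groups still overlapped, since 3 control mice were at 3.40, 4.66 and 5.53 FPKM. Its log2 difference was -0.42 ± 0.14 (SE) and -0.16 without set 3. Tef, the third member of the family (chr15:81802421-81826863, plus strand), ran from 27.7 through 43.1 to 67.8 FPKM against 32.4 through 48.6 to 61.1. For Tef, 10 of 12 ANG II mice lay below the control median, and its log2 difference was -0.20 ± 0.14 (SE).

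**Figure D1:**
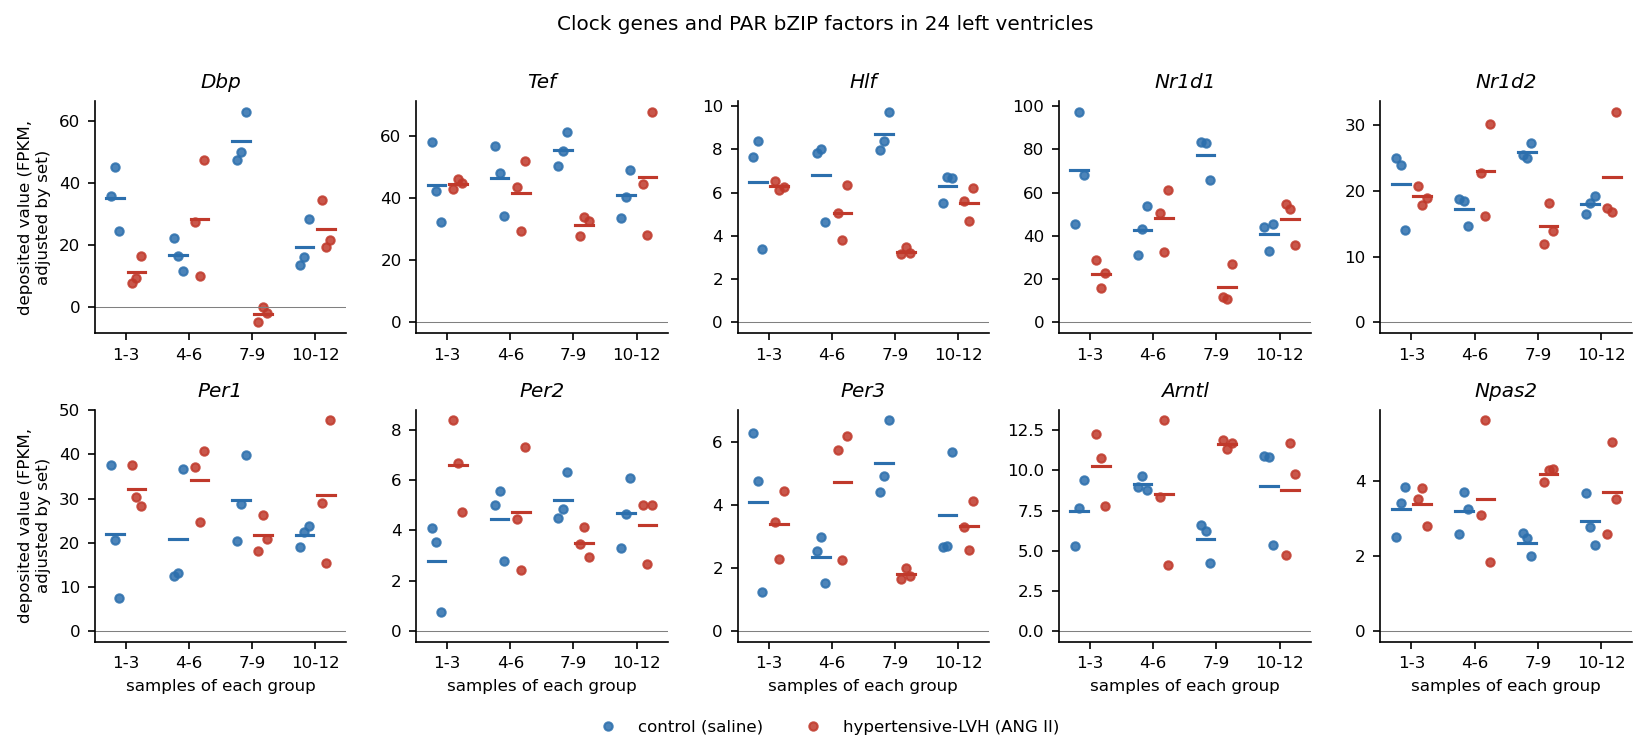
Deposited FPKM value of each gene in every mouse (vertical axis, 1 panel per gene) by set of samples (horizontal axis), with short lines at the mean of 3 mice. In set 3 (samples 7-9) the 3 ANG II mice lay below the 3 control mice for 7 genes and above them for Arntl and Npas2, while in set 2 (samples 4-6) the groups overlapped for all 10.

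Means over 12 mice hid that the order of the groups differed from set to set. In set 3, the 3 ANG II mice lay below all 3 control mice for 7 genes (Dbp, Tef, Hlf, Nr1d1, Nr1d2, Per2 and Per3) and above them for both activators, Arntl and Npas2, with Per1 overlapping. Over all genes tested, 16.8% separated downward and 10.2% upward in that set. In set 1, Dbp and Nr1d1 lay below and Per2 above, where 9.8% of all genes separated downward and 6.97% upward. In set 2, 0 of the 10 separated, where 9.03% of all genes did so downward and 38.5% upward. In set 4, 0 separated as well, where 11.0% of all genes did so downward and 10.0% upward. Counting only the sign, 5 genes were higher and 5 lower in set 1, 7 higher and 3 lower in set 2, 2 higher and 8 lower in set 3, and 6 higher and 4 lower in set 4. Since these sets were part of how the genes were chosen, the counts are a description.

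In set 3, Dbp was listed at -4.96, -0.130 and -1.87 FPKM in the ANG II mice and at 47.3, 50.0 and 63.0 FPKM in the control mice. Nr1d1 was at 11.9, 10.8 and 27.1 FPKM against 83.4, 82.8 and 65.7 FPKM. As deposited, the control mice at 50.0 and 63.0 FPKM held the highest Dbp values of the study, and the 3 ANG II mice held the lowest. Arntl was the mirror image, at 11.9, 11.4 and 11.7 FPKM in the ANG II mice against 6.62, 6.25 and 4.25 FPKM in the control mice. Npas2 was at 3.98, 4.31 and 4.32 FPKM against 2.62, 2.47 and 2.00 FPKM. Both activators were thus high where Dbp and Nr1d1 were low. The log2 differences in this set were -5.76 for Dbp, -2.26 for Nr1d1, 0.94 for Arntl and 0.63 for Npas2. The log2 value of Dbp depends on the number added before the logarithm, because its ANG II mice were listed below 0.

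In set 1, Dbp was at 7.84, 9.44 and 16.5 FPKM in the ANG II mice against 35.8, 45.2 and 24.6 FPKM in the control mice. Nr1d1 was at 29.1, 15.7 and 22.9 FPKM against 45.3, 97.4 and 68.1 FPKM. The log2 differences were -1.58 and -1.57, but the activators did not separate. Arntl was at 12.3, 10.8 and 7.77 FPKM against 5.28, 7.65 and 9.43 FPKM. Per2 went the other way from set 3, at 8.37, 6.68 and 4.74 FPKM against 4.09, 3.55 and 0.756 FPKM.

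In set 2, Dbp was at 27.3, 10.0 and 47.4 FPKM in the ANG II mice against 22.1, 16.4 and 11.5 FPKM in the control mice, and Arntl at 8.34, 13.1 and 4.13 FPKM against 8.98, 9.66 and 8.80 FPKM. The ANG II mouse with the highest Dbp of the set was the one with the lowest Arntl. In set 4, Dbp was at 34.3, 19.5 and 21.4 FPKM against 13.6, 16.2 and 28.4 FPKM, and Arntl at 4.76, 11.7 and 9.79 FPKM against 10.9, 10.8 and 5.37 FPKM. There too the ANG II mouse with the highest Dbp had the lowest Arntl, and so did the control mouse. Without set 3 the log2 difference over the other sets was 0.05 for Arntl, 0.11 for Npas2, -0.40 for Nr1d1, 0.00 for Tef, 0.17 for Nr1d2 and 0.19 for Per3, the last 3 having changed sign.

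**Figure D2:**
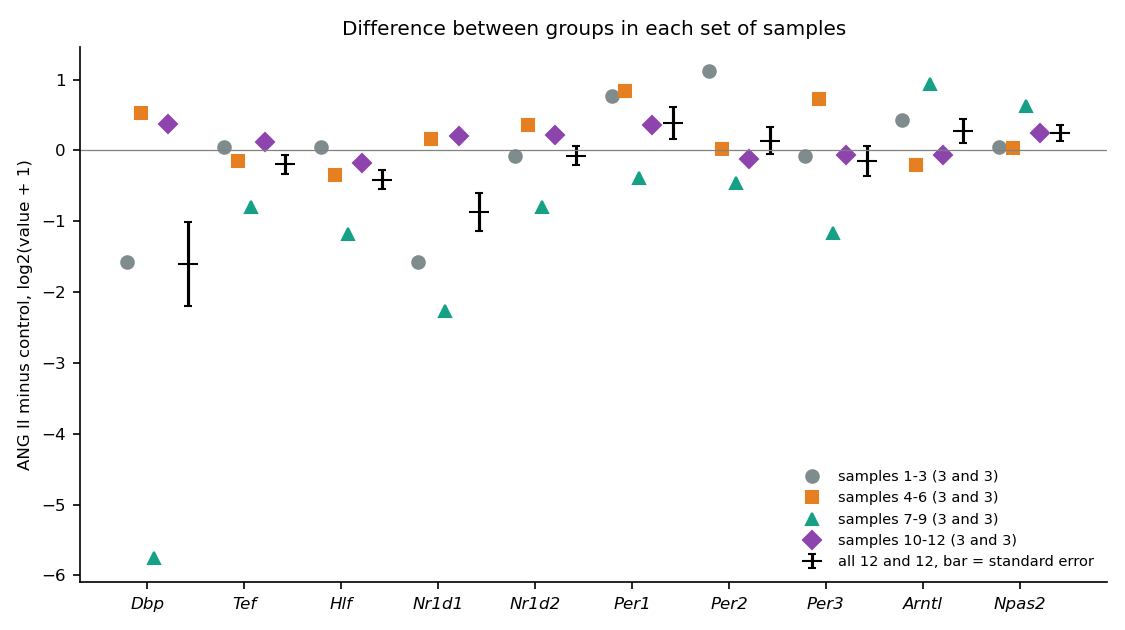
Difference between groups on the log2(FPKM + 1) scale (vertical axis, hypertensive-LVH minus control) for each gene, with 1 symbol per set of 3 and 3 mice and, in black, the difference over all 12 and 12 mice with its standard error. Dbp ranged from -5.76 in set 3 to 0.53 in set 2, and Arntl from -0.21 in set 2 to 0.94 in set 3.

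The order of the groups was nearly the same before the adjustment by set as after it. Before it, the sign of the difference was the same in 39 of 40 combinations of gene and set. The exception was Hlf in set 1, at -0.177 FPKM as deposited and 0.877 FPKM before. The Dbp difference in set 3 was -55.7 FPKM as deposited and -75.5 FPKM before, and that of Nr1d1 was -60.7 and -61.1 FPKM. In set 4 the Dbp difference shrank from 5.68 to 1.60 FPKM and that of Nr1d1 from 6.58 to 1.93 FPKM. For the activators in set 3, the Arntl difference was 5.95 FPKM as deposited and 5.31 FPKM before, and that of Npas2 was 1.84 and 1.28 FPKM. Before the adjustment, 6 of the 10 genes separated downward in set 3, Per2 no longer among them, and Hlf separated downward in set 4. Values before the adjustment were worked out for these 10 genes only, so no share over all genes can be set beside these counts. The level of a whole set cannot be worked out from the spacing, so values set side by side across sets are values as deposited, after the adjustment.

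**Figure D3:**
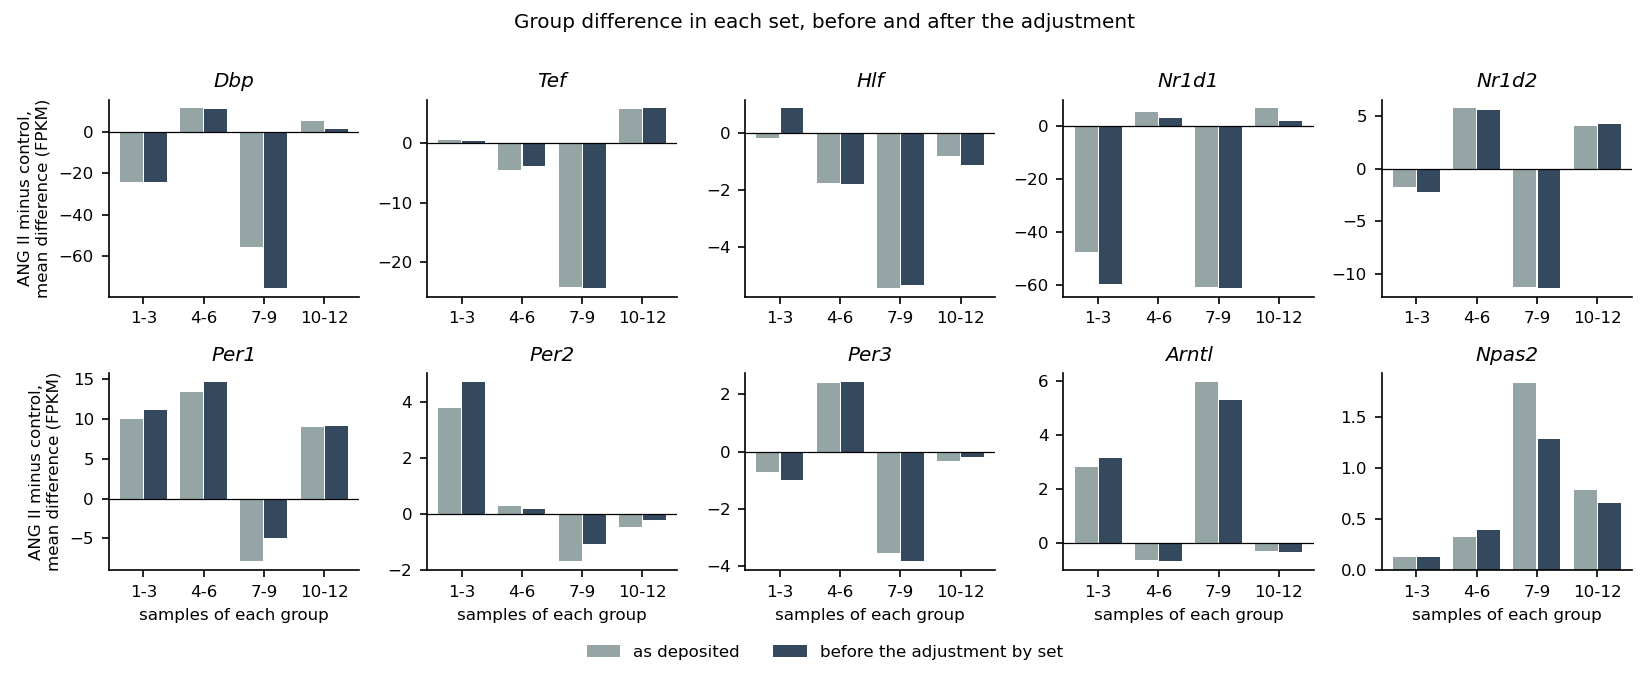
Mean difference between groups in FPKM (vertical axis, hypertensive-LVH minus control) in each set of 3 and 3 mice, as deposited (light bars) and before the adjustment by set (dark bars), 1 panel per gene. The bars kept their sign in 39 of 40 pairs, and the exception was Hlf in set 1.

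Whether the genes moved together from mouse to mouse was tested after the mean of each group in each set had been taken out, which removes the differences that chose them. Pearson's r and Spearman's rho were computed over 24 mice for all 45 pairs, with two-sided permutation tests within group and set and Benjamini-Hochberg adjustment over the 45. By r, 15 pairs were positively and 8 negatively related at an adjusted p under 0.05. The share of pairs of other genes that would pass was not worked out, so these counts stand without a background. By r, the pairs past the threshold joined Arntl to Npas2, joined most repressors and output factors to each other, and included neither Nr1d1 nor Per1.

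Arntl and Npas2 rose and fell together, with r = 0.90 (permutation p = 0.00018, adjusted p = 0.00122) and rho = 0.83 (permutation p = 0.00025, adjusted p = 0.00187). Within the sets r was 0.94, 0.95, 0.90 and 0.87, and without the 2 mice farthest from the Arntl median it was 0.85. Dbp ran against Arntl, with r = -0.85 (permutation p = 0.00061, adjusted p = 0.0025) and rho = -0.81 (permutation p = 0.00055, adjusted p = 0.00275). Within the sets r was -0.73, -0.88, -0.99 and -0.97, and without the 2 mice farthest from the Dbp median it was -0.76. The value was thus negative inside each of the 4 sets, those without a gap between the groups included, but in set 3 the ANG II values of Dbp were all below 0 and had been set to 0, so that every r with Dbp in that set rests on its 3 control mice. Dbp ran against Npas2 as well, with r = -0.87 (permutation p = 0.00092, adjusted p = 0.00345) and rho = -0.77 (permutation p = 0.00205, adjusted p = 0.0071). There r within the sets was -0.62, -0.95, -0.94 and -0.87, and -0.74 without the 2 farthest mice.

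Among Dbp, Tef, Hlf, Nr1d2, Per2 and Per3, 14 of 15 pairs were positively related, the exception being Dbp with Nr1d2 (r = 0.51, permutation p = 0.0672, adjusted p = 0.101). The highest r was that of Hlf with Per2, at 0.92 (permutation p = 4e-05, adjusted p = 0.000787), with rho = 0.90 (permutation p = 4e-05, adjusted p = 0.0009). Within the sets it was 0.92, 0.95, 0.91 and 0.91, and 0.89 without the 2 farthest mice. Without the logarithm, r of Hlf with Per2 was 0.80 on FPKM as deposited and 0.74 before the adjustment by set. Both were below those of Tef with Nr1d2, at 0.86 and 0.84. Tef with Nr1d2 had r = 0.85 (permutation p = 7e-05, adjusted p = 0.000787) and rho = 0.79 (permutation p = 0.00072, adjusted p = 0.00324). For this pair r within the sets was 0.81, 0.93, 0.73 and 0.87, and 0.81 without the 2 farthest mice. Per2 with Per3 had r = 0.83 (permutation p = 0.00203, adjusted p = 0.00703) and rho = 0.78 (permutation p = 0.00257, adjusted p = 0.00826), with 0.78, 0.93, 0.85 and 0.80 within the sets and 0.70 without the 2 farthest mice. The 8 negative pairs were Arntl with Dbp, Per2 and Per3, and Npas2 with Dbp, Tef, Hlf, Per2 and Per3. By rho, 3 of them did not pass, Hlf with Npas2 (adjusted p = 0.051), Per2 with Arntl (adjusted p = 0.0602) and Per2 with Npas2 (adjusted p = 0.0605), whereas Tef with Arntl did (rho = -0.60, permutation p = 0.0178, adjusted p = 0.0382). Of the 8, Arntl with Per3 had r = -0.67 (permutation p = 0.00703, adjusted p = 0.0186) and rho = -0.67 (permutation p = 0.00607, adjusted p = 0.0161), with -0.77, -0.71, -0.97 and -0.65 within the sets and -0.60 without the 2 farthest mice.

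Nr1d1 was related to none of the other 9 at the adjusted threshold, with r from -0.21 (Tef) to 0.24 (Dbp). With Dbp, r was 0.24 (permutation p = 0.359, adjusted p = 0.439) and rho 0.16 (permutation p = 0.522, adjusted p = 0.618), and within the sets r was 0.12, 0.46, -0.27 and 0.40. With only the means of the 2 groups taken out, r between Nr1d1 and Dbp was 0.76. That value keeps the differences between the groups within each set, which were used to choose the genes, so nothing is read from it. Per1 was likewise past the adjusted threshold with no gene by r, its highest being 0.61 with Nr1d2 (permutation p = 0.0386, adjusted p = 0.0725). By rho it passed with Nr1d2, at 0.59 (permutation p = 0.0212, adjusted p = 0.0434), and with Per2, at 0.58 (permutation p = 0.0222, adjusted p = 0.0434). Its r with Per2 within the sets was 0.93, -0.18, 0.83 and 0.79, so set 2 stood apart. Without set 2, the r of Per1 was 0.88 with Tef, 0.85 with Hlf, 0.84 with Nr1d2, 0.88 with Per2 and 0.80 with Per3. Without set 1, the same values were 0.41, 0.04, 0.45, 0.27 and 0.29, so they depended strongly on which set was left out.

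**Figure D4:**
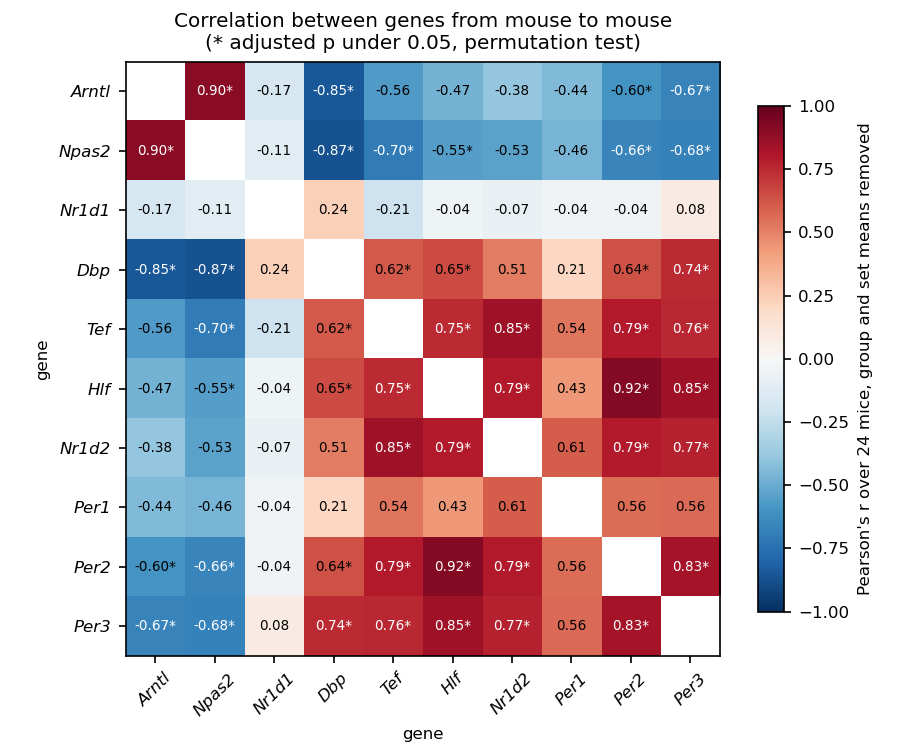
Pearson's r between each pair of the 10 genes over 24 mice (colour and printed number, both axes list the genes), with group and set means removed, where a star marks an adjusted p under 0.05 by permutation test. Arntl and Npas2 form 1 block (r = 0.90), and Dbp, Tef, Hlf, Nr1d2, Per2 and Per3 form another. Every r between the blocks is negative, with 8 pairs starred and Nr1d2 starred with neither Arntl nor Npas2. Nr1d1 has r between -0.21 and 0.24 with all others.

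The remaining genes of the clock were compared between the groups as a list of 18 core clock genes outside the 10. Of these, 3 rose, 0 fell and 15 did not pass the test (limma, 12 against 12). Over all genes, 20.9% were called higher and 12.6% lower, so the shares of the list were below those of all genes. The median log2 difference was 0.05, the same as that of all genes. At an unadjusted p under 0.05 there were 5, and a Wilcoxon rank-sum test called 2 higher and 0 lower. Clock, the usual partner of BMAL1, rose by 0.19 ± 0.05 on the log2 scale (SE, adjusted p = 0.0101), from 6.94 ± 0.637 to 8.04 ± 0.819 FPKM, and was above the control median in 11 of 12 ANG II mice. Fbxw11, a subunit of a ubiquitin ligase that takes down PER proteins, rose by 0.17 ± 0.04 (SE, adjusted p = 0.0019), with 12 of 12 above. Csnk1d, the casein kinase that marks PER for that ligase, rose by 0.13 ± 0.05 (SE, adjusted p = 0.0394), with 11 of 12 above, and lost its call in 22 of 37 alternative analyses. These 3 differences were smaller in size than those of Dbp, Hlf and Nr1d1, which had been chosen on their difference between the groups. Without set 3, they were 0.15 for Clock, 0.17 for Fbxw11 and 0.16 for Csnk1d. In the same mice Dbp was at -0.23, Hlf at -0.16 and Nr1d1 at -0.40. Quantile normalization shifted the median of all genes from 0.05 to -0.02 and gave 1922 genes higher and 2930 lower in place of 2928 and 1769. Under it, 1 core gene rose (Fbxw11) and 3 fell (Bhlhe41, Btrc and Timeless).

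Cry1 and Cry2, the partners of PER in repression, had log2 differences of 0.04 (adjusted p = 0.779) and -0.03 (adjusted p = 0.842), and Ciart, a repressor expressed in step with the Per genes, -0.11 (adjusted p = 0.723). Nfil3, the repressor that competes with DBP for D-boxes, was at 19.1 ± 7.21 FPKM in the hypertensive-LVH group and 13.2 ± 7.24 in the control group (SD, n = 12 each). Its log2 difference of 0.53 ± 0.21 (SE) did not pass (limma adjusted p = 0.0546), although 11 of 12 ANG II mice lay above the control median. From mouse to mouse, with group and set means removed, the r of Nfil3 was -0.61 with Dbp and 0.38 with Arntl over 24 mice. Ciart had the reverse, 0.62 with Dbp and -0.66 with Arntl. These values of r are descriptions and were not tested.

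A list of 22 genes with described daily rhythms or clock control was examined as the output of the loop. Of these, 5 rose, 5 fell and 12 did not pass, where 20.9% of all genes were called higher and 12.6% lower. The median log2 difference was 0.10, against 0.05 over all genes. Those that rose were Fkbp5, a co-chaperone of the glucocorticoid receptor (0.93 ± 0.20 SE, adjusted p = 0.00121), Cdkn1a, the cell cycle inhibitor p21 (0.89 ± 0.28, adjusted p = 0.0158), Tsc22d3, a glucocorticoid-induced repressor (0.37 ± 0.14, adjusted p = 0.038), Wee1, a kinase that delays mitosis (0.34 ± 0.11, adjusted p = 0.0183), and Ppp1r3c, which brings a phosphatase to glycogen (0.25 ± 0.10, adjusted p = 0.0469). Those that fell were Ucp3, a mitochondrial carrier (-0.74 ± 0.24, adjusted p = 0.0215), Kcnip2, a subunit of the channel of the transient outward current (-0.43 ± 0.10, adjusted p = 0.00253), Alas1, the first enzyme of heme synthesis (-0.40 ± 0.10, adjusted p = 0.00327), Dgat2, an enzyme of triglyceride synthesis (-0.39 ± 0.12, adjusted p = 0.014), and Kcnh2, a potassium channel of repolarization (-0.28 ± 0.08, adjusted p = 0.008). The share of the list called higher was thus near that of all genes. Ppp1r3c lost its call in 28 of 37 alternative analyses and Tsc22d3 in 16. Without set 1, 2 output genes rose and 3 fell, and without set 2, 3 rose and 1 fell.

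**Figure D5:**
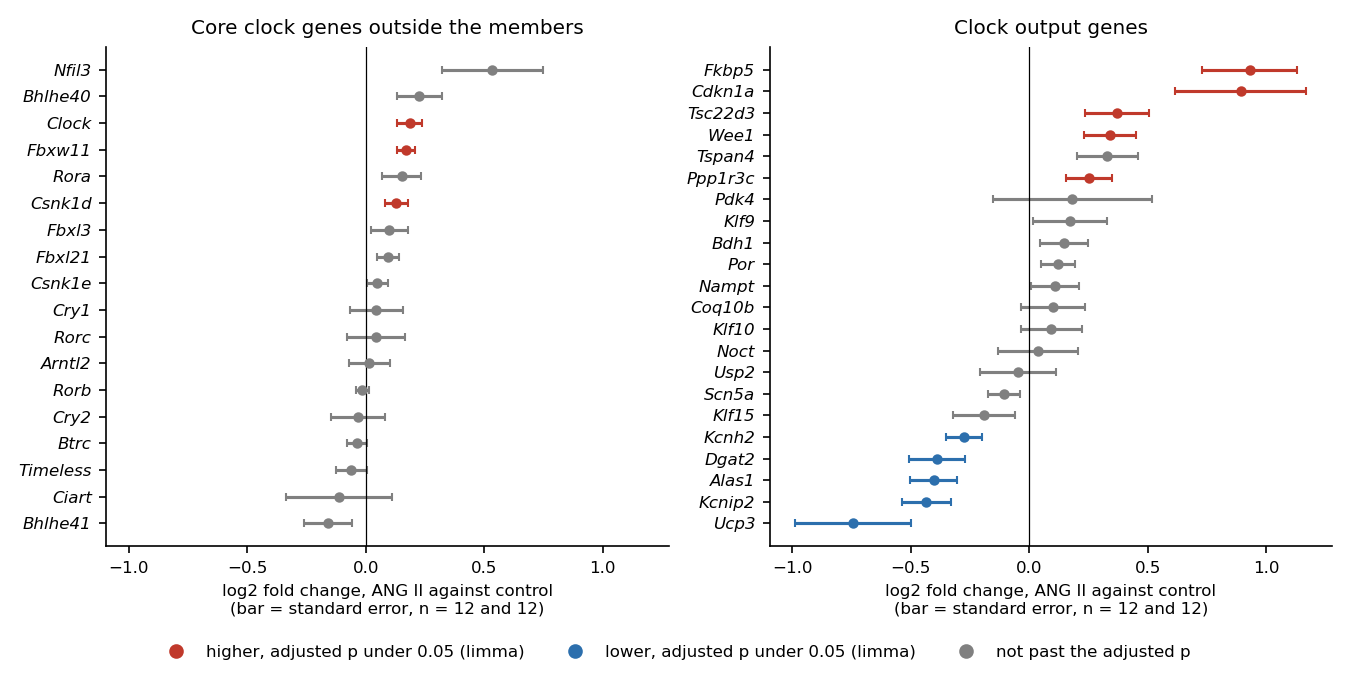
Log2 difference between the groups (horizontal axis, hypertensive-LVH minus control, n = 12 and 12) with its standard error for 18 core clock genes outside the 10 (left) and 22 clock output genes (right), coloured where the adjusted p was under 0.05 (limma). In the core list 3 genes rose by 0.13 to 0.19, while in the output list Fkbp5 rose by 0.93 and Ucp3 stood at -0.74.

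Whether the difference between the groups was the same in all 4 sets was tested for these lists with the interaction of group and set (limma F test), which called 7.49% of all genes. Of the core list, 0 of 18 genes passed, with 8 at an unadjusted p under 0.05. Cry1 was nearest (adjusted p = 0.0528), at log2 differences of 0.44, -0.49, 0.40 and -0.17 in sets 1 to 4, and passed on the log2(FPKM + 0.1) scale (adjusted p = 0.0485). Of the output list, 5 of 22 passed. Among them Usp2, a ubiquitin protease and direct target of the clock, had differences of 0.84, -0.38, -0.73 and 0.08 in sets 1 to 4 (adjusted p = 0.0339). Noct, which removes a phosphate from NADPH and cycles widely, had 1.00, -0.63, -0.09 and -0.13 (adjusted p = 0.0475). Without set 2, 0 of the output genes passed, and 3 of all genes did. Set 2 also stood apart in marker genes of fibroblasts, atrial myocytes and adipocytes, given below, and their part in this result was not tested. The 10 genes described first were given no p here, since the sets were used to choose them.

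Lists of genes that respond to other signals were read beside the clock genes, with the same 20.9% higher and 12.6% lower over all genes as background. Of 9 glucocorticoid-induced genes, which share Fkbp5, Tsc22d3 and Klf9 with the output list, 6 rose and 0 fell (limma, 7 at an unadjusted p under 0.05), with a median log2 difference of 0.39. The interaction of group and set passed for 3 of the 9, Tsc22d3, Pik3ip1 and Mt2. Mt2, a metallothionein, had log2 differences of 1.69, -0.32, 2.78 and 1.58 in sets 1 to 4 (limma adjusted p = 0.0347). Of 10 immediate early genes, which respond to handling and to tissue damage, 1 rose (Ier3) and 0 fell (3 at an unadjusted p under 0.05). Of 6 cardiomyocyte markers 3 fell, and their summed value ran from 29303 to 42612 FPKM in the hypertensive-LVH group, against 39351 to 49390 in the controls. Of 6 fibroblast markers 3 rose, of 6 macrophage markers 6, and of 5 red blood cell markers 5. The ratio of the groups for the summed fibroblast markers was 1.15, 4.49, 1.40 and 1.26 in sets 1 to 4, for macrophage markers 1.05, 2.79, 2.15 and 1.16, and for red blood cell markers 1.71, 2.67, 4.64 and 7.03. For atrial markers it was 0.198, 52.5, 1.36 and 1.10, and for adipocyte markers 0.381, 76.9, 0.530 and 1.47. Negative values had been set to 0 in these sums, and the lowest control sum was 0 FPKM for atrial and for adipocyte markers. A ratio for these lists can thus rest on control sums near 0. Endothelial markers had 1 of 5 higher and 1 of 5 lower, smooth muscle and pericyte markers 1 of 5 higher, and atrial and adipocyte markers none of the 3 and 4 tested. The part of these cell types and signals in the clock values was not tested.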

How the data were processed

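Left ventricles of 12 ANG II and 12 control mice were analysed, and 4 further samples per group of the study were not analysed here. Per the submitters' processing notes, HISAT, Bowtie2 and RSEM were used. Versions and the genome build are not given in the sources used here. The authors deposited 1 value per gene and sample, named FPKM, but it was treated as a score, because values were negative and had been adjusted in 4 sets of samples, found from exact ties (215 to 541 tied genes in a pair within a set, 0 between sets). The 278 genes with whole hundredths in every sample were left out of the tie counts. The factor by which each of the 10 genes had been scaled in a set was worked out from the spacing of its values, on the assumption that FPKM had been rounded to whole hundredths. It was also assumed that each gene had 1 shift and 1 scale in a set. A further assumption was that 1 difference between the groups, common to all sets, had been left unscaled. That difference was fitted from the same values.

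Negative values were set to 0, 1 was added, log2 was taken, and the 14026 genes whose mean reached 0.1 were fitted with limma 3.58.1 (R 4.3.3, eBayes with trend), with adjusted p by Benjamini-Hochberg over all of them. Means, SD and ranges of single genes in FPKM keep negative values, while sums of marker genes set them to 0. Correlations used 100000 resamples (Python 3.11.15, numpy 2.4.6, pandas 2.3.3, scipy 1.17.1), and figures matplotlib 3.10.9. All tests were two-sided except the F test of the interaction. The limma fits and the permutation test of r were checked on simulated data, and the Wilcoxon test and the test of rho were not. The labels give the samples as separate samples of a group, and the methods call them biological replicates. Gene positions are from GENCODE vM21 and sequences from RefSeq.

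The 10 genes and all lists were chosen with earlier results of these data known. Named genes are the 10, the listed genes past the adjusted p, and the 5 with the highest and the 5 with the lowest r of levels over 24 mice with Dbp and with Arntl, of which 1 is not reported here. Cry1, Cry2, Mt2, Pik3ip1, Ciart, Nfil3, Usp2, Noct, Pdk4, Bhlhe41, Btrc, Timeless, Ier3 and Tspan4 were named after their values were seen. Alternatives were another pseudocount, other filters, median-ratio and quantile scaling, no trend, a Wilcoxon test, a term for the set, the replicate number as a block, a threshold on the fold change, and leaving out each mouse or set. Values before the adjustment were added after the data were seen.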

Additional observations from a re-analysis of the deposited data

Results flagged for a closer look

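Per2 had its groups in opposite order in 2 sets. The 3 ANG II mice lay above all control mice in set 1, with a mean difference of 3.80 FPKM, and below them in set 3, with a mean difference of -1.70 FPKM. This difference between sets was not tested, since the sets were used to choose the gene. Before the adjustment by set the differences were 4.71 and -1.06 FPKM, and in set 3 the groups then overlapped.

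For 5 clock output genes the difference between the groups was not the same in the 4 sets (limma F test of the interaction). The adjusted p was 0.00231 for Pdk4, 0.0164 for Cdkn1a, 0.0339 for Usp2, 0.0475 for Noct and 0.0486 for Tsc22d3. Pdk4, the kinase that shuts off pyruvate dehydrogenase, had log2 differences of 0.91, -2.22, 1.26 and 0.78 in sets 1 to 4. Cdkn1a had 1.63, -0.79, 1.91 and 0.83, and Tsc22d3 0.57, 1.05, -0.17 and 0.03. For Pdk4 and Cdkn1a, set 2 thus went against the other sets, whereas for Tsc22d3 it held the largest increase. Without set 2, 0 of the 5 passed. In set 2 the ratio of the groups was 4.49 for the summed fibroblast markers, 52.5 for atrial markers and 76.9 for adipocyte markers, and their part in these results was not tested. The lowest control sum of the atrial and of the adipocyte markers was 0 FPKM, so their ratios can rest on control sums near 0.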

How the results depend on the processing

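None of the 13 core and output genes that passed changed sign under the alternatives tried, but counts moved. Of the 10 genes given without a p, Tef, Nr1d2 and Per3 changed sign without set 3, and Per2 without set 1 (-0.19). Of the 18 core genes, main counts 3 higher and 0 lower, quantile normalization gave 1 and 3, and a fold change over 0.5 on the log2 scale gave 0 higher. Leaving out each mouse gave 2 to 4 higher and 0 lower. Of the 22 output genes, main counts 5 and 5, those higher were 3 under quantile normalization, a Wilcoxon test or a term for the set, 1 under the replicate block, 2 without set 1, 3 without set 2, 2 with the fold threshold, and 3 to 5 without each mouse (3 without ANG II mouse 1, 4, 5 or 6 or control mouse 4, 5 or 6). Those lower were 3 under the block, 3 without set 1, 1 without set 2 and 1 with the fold threshold. Of all genes, 1922 were higher under quantile normalization, 1586 under the block, 1173 without set 2 and 634 with the threshold, and 2930 were lower under quantile normalization and 197 with the threshold. With group means removed, same-numbered mice of the groups had r from -0.56 to 0.00, with 0 of 12 pairs over 0.1. Of the ANG II mice, 0 of 12 were most like their own number. The adjustment by set can itself turn the groups of a set against each other, so these r cannot decide on pairing. With set means removed as well, r ran from -0.42 to 0.27, with a median of -0.04 and 1 of 12 pairs over 0.1. The labels name no pairs, and the numbers were not read as pairs.

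With 0.1 added before the logarithm, the differences in set 3 were -9.05 for Dbp, -1.38 for Hlf, -1.50 for Per3 and 0.81 for Npas2. Before the adjustment, that of Dbp in set 3 was -75.5 FPKM and that of Npas2 1.28 FPKM. The interaction passed for 1 core gene with 0.1 added (Cry1) and 2 without set 4 (Cry1 and Bhlhe41), and for 3 output genes with no filter, 3 with no trend, 3 without set 1, 0 without set 2 and 2 without set 3. Of all genes it passed for 3 without set 2 and 1634 without set 4. With only group means removed, 23 gene pairs were positively and 15 negatively related. These values keep the differences between groups within sets that were used to choose the genes, so nothing is read from these counts. With group and set means removed, negative pairs were 4 without set 1, 4 without set 2 and 5 before the adjustment. The causes were not tested.

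The depth in fragments is not known, so low values such as those of Npas2 and Per3 carry no counting interval. With 3 and 3 mice in a set, 1 set decides the size of several differences, and the level of a set before the adjustment could not be recovered. Hour of collection is not given, and it cannot be told apart from group or set.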

Other observations

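Over all 24 mice, with nothing removed, the genes outside the 10 whose level was most like that of Dbp were Shq1 (r = 0.78), Egf (0.76), Cyb5r2 (0.76), Cep112 (0.75) and Tcap (0.75), of 14026 genes compared. Among the genes most opposed to Dbp were Wdfy1 (-0.72), Depdc1a (-0.72), Azin1 (-0.69) and Cep55 (-0.66). For Arntl the most like were Rpp38 (0.75), Unc119b (0.69), Igf2bp2 (0.65), Fam124b (0.63) and Phc2 (0.63), and the most opposed were Extl2 (-0.79), Lgi3 (-0.74), Ciart (-0.70), Clec2e (-0.70) and Shq1 (-0.70). Shq1 stood on both lists, most like Dbp and opposed to Arntl, and Ciart was the core clock gene on the Arntl list. These are descriptions across mice that share groups and sets, and the levels carry the group difference that Dbp was chosen on. With group and set means removed, the r with Dbp was 0.23 for Shq1, -0.25 for Egf, 0.23 for Cyb5r2, 0.23 for Cep112 and 0.46 for Tcap, and -0.12 for Wdfy1, 0.03 for Depdc1a, -0.23 for Azin1 and 0.12 for Cep55. For Arntl it was 0.48 (Igf2bp2) to 0.64 (Fam124b) for the most like and -0.53 (Shq1) to -0.75 (Lgi3) for the most opposed.

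Without set 1, Tspan4 passed among the output genes (log2 difference 0.45, limma adjusted p = 0.0431), against 0.33 (adjusted p = 0.0511) over all mice. Without set 2, Pdk4 passed (0.98, adjusted p = 0.00815), against 0.18 (adjusted p = 0.699) over all mice.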
